A study of Homo sapiens with 6 samples.

Results

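The 47 genes described here encode the machinery of autophagy, the lysosome and the aggresome, together with protein partners of KDAC6, the lysine deacetylase also called HDAC6. They were chosen by name as a functional group, and all 47 stood in a deposited table of 60675 gene rows. The file names UFD1 as UFD1L, which was matched through its gene identifier, and the other 46 matched by name. RNA came from HT1080, an established human fibrosarcoma cell line with the genotype label WT, and the study addressed the selectivity of compounds that inhibit KDAC6. One group received SW-138 and the other SW-113, each at 1 µM for 48 h, with 3 libraries per compound. Both groups were thus treated with a compound, and no library from untreated or vehicle-treated cells was analysed here. Each difference below therefore compares SW-138 with SW-113, and not either compound with untreated cells.

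KDAC6 is a mostly cytoplasmic deacetylase of tubulin and other proteins that also binds ubiquitin through a zinc finger. It is known to link ubiquitylated protein aggregates to dynein motors, which carry them along microtubules to the aggresome, a deposit near the centrosome. Autophagy clears such deposits: a double membrane grows around the cargo, receptors bind ubiquitin on the cargo and ATG8 proteins on the membrane, and the closed autophagosome fuses with the lysosome. VCP, an ATPase that unfolds ubiquitylated proteins, and its cofactor PLAA are known to separate KDAC6 from ubiquitin.

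Library totals ranged from 32771670 to 50871623 expected counts. Levels are given as CPM, counts scaled to the library total with TMM factors, and differences as log2 fold changes of SW-138 minus SW-113. The markers of a mesenchymal line were present, with VIM at 3329 to 3860 CPM and FN1 at 1004 to 1504 CPM over the 6 libraries, although THY1 did not exceed 0.109 CPM. The 6 mesenchymal markers summed to 6673 to 7577 CPM under SW-138 and 6291 to 7124 CPM under SW-113. The sum of 4 epithelial markers was 2.31 to 3.19 CPM under SW-138 and 1.89 to 2.66 CPM under SW-113, nearly all of it CLDN4, and no blood or endothelial marker passed 0.489 CPM in any library. On the axis of greatest spread among libraries, SW-138 replicate 2 lay apart, at 39.1. SW-138 replicates 1 and 3 were at 3.54 and 5.88 on it, and the SW-113 libraries at -24.1 to -10.1. RN7SL1, a short noncoding RNA, took 2.14% to 2.88% of the counts under SW-138 and 3.72% to 4.39% under SW-113.

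The 47 genes differed little between the compounds. Of these, 2 fell under SW-138 relative to SW-113, namely STUB1 and GABARAP, and 45 did not pass the test (edgeR quasi-likelihood test, Benjamini-Hochberg adjusted p under 0.05 over 16905 tested genes). That is 4.26% of the members, against 6.82% of all tested genes in either direction and 4.06% lower. No member rose by this test, where 2.76% of all genes did. At an unadjusted p under 0.05, 1 member was higher, against 1691 of the 16905 tested genes. By limma-voom 0 members were called higher, against 464 of all tested genes, and by DESeq2 1 member, against 622. In all, 13 of the 47 (27.7%) had an unadjusted p under 0.05, against 22.3% of all genes. The 3 libraries of each compound did not overlap for 17 members (36.2%), against 27.9% of all genes, and 15 of those 17 were lower under SW-138. Over all genes, 15.4% had no overlap and were lower, and 12.4% had no overlap and were higher. The median log2 fold change was -0.05 over the 47 members and 0.01 over all tested genes, and member values ran from -0.35 to 0.25. The 95% interval of the difference lay within 1.5-fold in either direction for 46 of the 47 members (97.9%), against 68.2% of all tested genes, which include many of low count. The exception was MAP1LC3A, at about 0.3 CPM. Together the members took 0.661% to 0.675% of the counts under SW-138 and 0.649% to 0.688% under SW-113. In bulk RNA, a lower level in every cell and fewer cells with the transcript cannot be told apart.

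**Figure D1:**
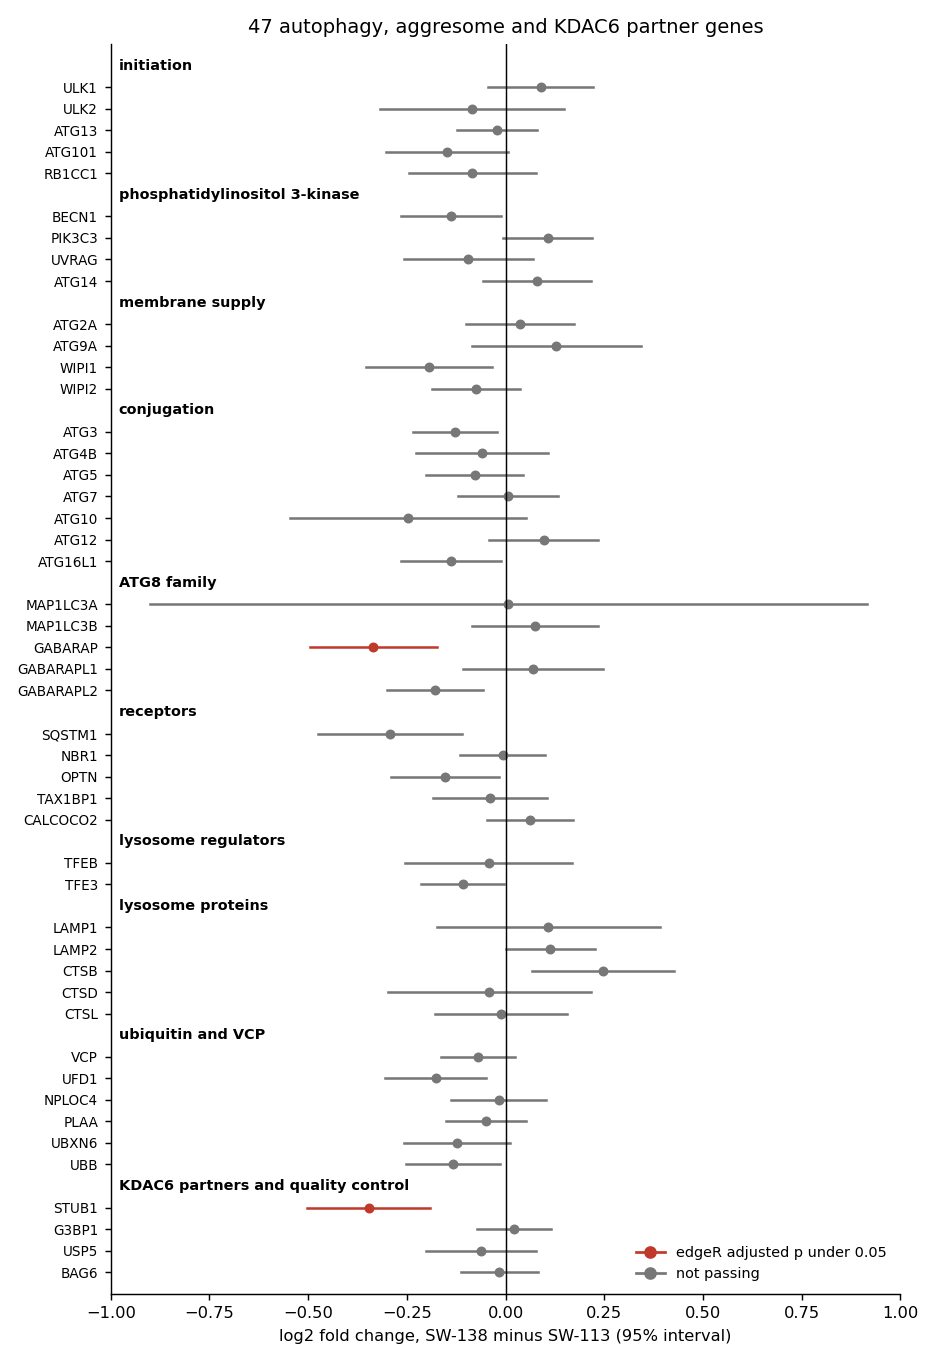
Log2 fold change of each of the 47 genes, SW-138 minus SW-113, with its 95% interval, arranged by role. STUB1 at -0.35 and GABARAP at -0.33, in red, passed the edgeR test, and the other 45 genes did not.

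The count of calls depended on single libraries. It was 0 without SW-138 replicate 1, without SW-113 replicate 2 or without SW-113 replicate 3, where 8, 9 and 8 members had an unadjusted p under 0.05, and 1 without SW-138 replicate 3 (edgeR). The share of all genes called was 2.94%, 2.64%, 1.74% and 3.49% in these 4 fits, down from 6.82%, so the drop was not confined to the members. The members' count was 5 (10.6%) without SW-138 replicate 2, where 9.39% of all genes were called.

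Autophagy is started by the ULK kinase complex, whose 5 measured members differed by -0.15 to 0.09 on the log2 scale. ULK1, the kinase itself, had a difference of 0.09, and its relative ULK2 was scarce, at 1.23 CPM per kilobase under SW-138 and 1.31 under SW-113. ATG101, a small adaptor of the complex, had 39.9, 46.0 and 46.0 CPM under SW-138, against 47.1, 51.5 and 47.3 CPM under SW-113. The libraries of ATG101 did not overlap, but its adjusted p was 0.238 (edgeR). RB1CC1, the scaffold of the complex, was its most abundant member at 275 to 307 CPM under SW-138 and 278 to 338 CPM under SW-113, and these ranges overlapped.

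The lipid kinase complex that marks the forming membrane was represented by PIK3C3, its catalytic subunit, and by BECN1, ATG14 and UVRAG. PIK3C3 was 1 of the 2 members whose libraries were all higher under SW-138, at 119.7, 125.6 and 118.5 CPM against 107.5, 117.1 and 113.1 CPM under SW-113. BECN1, the scaffold subunit, had the opposite order, at 46.99, 51.7 and 51.9 CPM under SW-138 against 53.4, 56.4 and 55.8 CPM under SW-113. Neither difference passed, with 0.11 and an adjusted p of 0.264 for PIK3C3 and -0.14 and an adjusted p of 0.189 for BECN1 (edgeR). Of the genes that supply and mark membrane, ATG2A transfers lipid, ATG9A scrambles it, and WIPI1 and WIPI2 read the lipid mark. These 4 ranged from -0.19 for WIPI1 to 0.13 for ATG9A.

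The conjugation enzymes attach ATG8 proteins to lipid. ATG7 is the activating enzyme, ATG3 and ATG10 the conjugating enzymes, ATG12 and ATG5 with ATG16L1 the ligase, and ATG4B the protease that primes and releases ATG8 proteins. Their 7 differences ran from -0.25 to 0.10 with a median of -0.08. ATG10, at the lower end, was also the scarcest of them at 1.76 CPM per kilobase under SW-138 and 2.09 under SW-113. Libraries did not overlap for 2 of the 7, ATG3 and ATG16L1 (28.6%, near the 27.9% of all genes). ATG3 had 79.8, 77.1 and 79.4 CPM under SW-138 against 83.4, 88.0 and 86.9 CPM under SW-113. ATG16L1 had 37.9, 38.8 and 41.2 CPM under SW-138 against 41.5, 44.5 and 43.7 CPM under SW-113. The ATG3 and ATG16L1 differences, -0.13 and -0.14, had adjusted p of 0.144 and 0.180 (edgeR).

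Of the 5 ATG8 genes, GABARAP fell under SW-138 and the 4 others did not pass. GABARAP, a ubiquitin-like protein placed on autophagosomes, had 87.8, 106.0 and 101.2 CPM under SW-138, against 117.5, 130.7 and 123.6 CPM under SW-113. Every SW-138 library was below every SW-113 library. The means were 98.3 ± 9.44 CPM under SW-138 and 123.9 ± 6.61 CPM under SW-113 (SD, n = 3 each), which is 1.26-fold lower. On the log2 scale this was -0.33 ± 0.07 (SE; 95% interval -0.50 to -0.17), with an edgeR adjusted p of 0.0228. Leaving out single libraries moved the adjusted p between 0.00403 and 0.0951 (edgeR), and it missed the threshold without SW-138 replicate 1, SW-138 replicate 3, SW-113 replicate 2 or SW-113 replicate 3.

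GABARAPL2, its close relative, had 50.2, 53.0 and 50.7 CPM under SW-138, against 55.9, 61.2 and 56.9 CPM under SW-113. Its libraries did not overlap either, and its difference of -0.18 had an adjusted p of 0.0809 (edgeR). MAP1LC3B, the ATG8 protein most used as a marker of autophagosomes, had 126.1, 131.7 and 124.3 CPM under SW-138, against 112.6, 136.0 and 114.1 CPM under SW-113. SW-113 replicate 2 was the highest of these 6 libraries, so the groups overlapped. The MAP1LC3B difference was 0.07 (95% interval -0.08 to 0.23), at an edgeR adjusted p of 0.590. GABARAPL1 had a difference of 0.07. Per kilobase of transcript, GABARAP stood highest at 60.2 CPM under SW-138 and 75.8 CPM under SW-113, followed by MAP1LC3B at 41.3 and 39.2, GABARAPL2 at 22.6 and 25.5, GABARAPL1 at 6.12 and 5.82, and MAP1LC3A at 0.191 and 0.194. The order was the same with both compounds.

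GABARAP lies at chr17:7240014-7242770 on the minus strand of GRCh38 (GENCODE 29), and GABARAPL2 on chromosome 16. In the 250 bases before their RefSeq starts, neither gene has CACGTG, the E-box bound by TFEB and TFE3. The RefSeq starts of GABARAP and GABARAPL2 lie downstream of the outermost GENCODE start of each gene. Thus 250 and 28 of those bases lie in an exon of the GENCODE model. For GABARAP, sequence before that outermost start was not searched.

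Cargo receptors bind ubiquitin and ATG8 proteins together. SQSTM1, the best known of them and a component of ubiquitin-rich bodies, had the highest level per kilobase of all members, at 382 CPM under SW-138 and 468 CPM under SW-113. It lies at chr5:179806398-179838078 on the plus strand of GRCh38. In single libraries SQSTM1 had 1062, 1168 and 1193 CPM under SW-138, against 1284, 1605 and 1304 CPM under SW-113. The groups did not overlap, and SW-113 replicate 2 was the highest library. The means were 1141 ± 69.5 CPM under SW-138 and 1398 ± 180 CPM under SW-113 (SD, n = 3 each). The log2 fold change of -0.29 ± 0.08 (SE; 95% interval -0.48 to -0.11) did not pass at an adjusted p of 0.0730 (edgeR). SQSTM1 passed with DESeq2 (adjusted p 0.00725) and by edgeR under the filter of 1 count in 1 library (adjusted p 2.93e-05), and did not with limma-voom (adjusted p 0.0666). Without SW-113 replicate 2 its difference was -0.18 (edgeR adjusted p 0.188).

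The other receptors differed by less. OPTN had 41.7, 42.3 and 43.3 CPM under SW-138 against 45.3, 51.1 and 45.2 CPM under SW-113, with no overlap, a difference of -0.15 and an adjusted p of 0.169 (edgeR). NBR1, TAX1BP1 and CALCOCO2 overlapped, with differences of -0.01, -0.04 and 0.06. Summed over the 5 receptors, counts were 1532, 1654 and 1664 CPM under SW-138 against 1742, 2115 and 1781 CPM under SW-113, most of it SQSTM1. SQSTM1 and its neighbours on the opposite strand could share reads, since the strand setting of the counting is not given in the sources used here. MGAT4B, which overlaps SQSTM1 by 555 bases on the opposite strand, fell under SW-138 (204 CPM under SW-138 and 242 CPM under SW-113, log2 fold change -0.24, edgeR adjusted p 0.0290). MRNIP overlaps SQSTM1 by 2946 bases, also on the opposite strand. It had 21.45 CPM under SW-138 and 19.04 CPM under SW-113 (log2 fold change 0.17, edgeR adjusted p 0.369). The part of these overlaps in the SQSTM1 value was not tested.

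**Figure D2:**
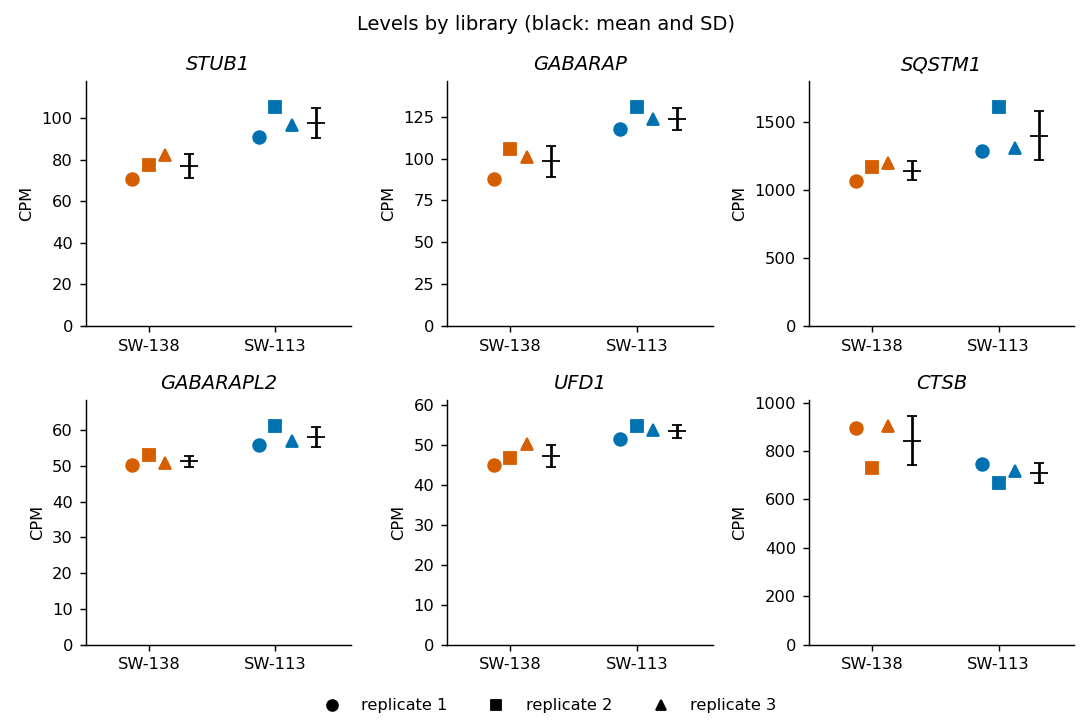
CPM of 6 genes in each library, SW-138 left and SW-113 right, with the replicate shown by symbol and the mean and SD in black. STUB1, GABARAP, SQSTM1, GABARAPL2 and UFD1 have every SW-138 library below every SW-113 library, and CTSB overlaps through SW-138 replicate 2.

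TFEB and TFE3 are the transcription factors that switch on lysosome and autophagy genes. TFE3 was the more abundant at 18.1 CPM per kilobase under SW-138 and 19.5 under SW-113, against 2.79 and 2.87 for TFEB. TFE3 had 62.5, 60.3 and 62.5 CPM under SW-138, against 66.3, 65.9 and 67.7 CPM under SW-113. Its libraries did not overlap, and its difference of -0.11 had an adjusted p of 0.208 (edgeR). TFEB had a difference of -0.04.

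The lysosomal members were the membrane proteins LAMP1 and LAMP2 and the cathepsin proteases CTSB, CTSD and CTSL. Their median log2 fold change was 0.11, the highest of the 10 roles, and none of the 5 passed. CTSB, a cysteine protease and the most abundant of them, had 897, 728 and 904 CPM under SW-138, against 747, 666 and 719 CPM under SW-113. SW-138 replicates 1 and 3 were above all SW-113 libraries, while SW-138 replicate 2 lay within their range. The means were 843 ± 99.4 CPM under SW-138 and 711 ± 41.5 CPM under SW-113 (SD, n = 3 each). The difference of 0.25 ± 0.08 (SE; 95% interval 0.07 to 0.43) had an adjusted p of 0.111 (edgeR). CTSB passed with DESeq2 (adjusted p 0.0194), and by edgeR with total-count scaling (adjusted p 0.0461) and with genes kept at 1 count in 1 library (adjusted p 0.00147). It did not pass with limma-voom (adjusted p 0.107), or by edgeR with length and GC trends removed (adjusted p 0.0625). Of 19 alternatives, CTSB passed in 7 and did not in 12.

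LAMP1 had 235, 155 and 217 CPM under SW-138, against 199, 173 and 191 CPM under SW-113. CTSD, an aspartic protease, had 214, 149 and 203 CPM under SW-138, against 209, 181 and 193 CPM under SW-113. Both were lowest in SW-138 replicate 2 and, among the SW-113 libraries, lowest in replicate 2 as well. LAMP2 was higher in each SW-138 library, at 172.6, 160.1 and 160.0 CPM against 157.3, 146.9 and 151.2 CPM under SW-113, and its difference of 0.11 had an adjusted p of 0.240 (edgeR). CTSL had 58.1, 50.0 and 60.6 CPM under SW-138 against 58.6, 58.4 and 53.1 CPM under SW-113, which overlapped.

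Replicate 2 was the lowest library within both compounds for 3 of the 5 lysosomal members, CTSB, LAMP1 and CTSD. The same was so for 12 of 36 other lysosome genes (33.3%), for 7 of all 47 members (14.9%) and for 3015 of the 16905 tested genes (17.8%). This count was made after the values were seen. Without SW-138 replicate 2, CTSB rose under SW-138 by 0.34 (adjusted p 0.00620), LAMP1 by 0.26 (adjusted p 0.0283) and ATG9A by 0.24 (adjusted p 0.0332), each by edgeR. That library held the lowest SW-138 value of each of these genes. None of them passed in another fit without a single library. Differences there went as low as 0.20 for CTSB, -0.015 for LAMP1 and 0.063 for ATG9A. Adjusted p reached 0.308, 0.963 and 0.789 in the same order (edgeR). Without replicate 2 of both compounds, an alternative chosen after seeing the data, CTSB passed at 0.30 (adjusted p 0.00719) and LAMP1 at 0.21 (adjusted p 0.0492), and ATG9A did not at 0.19 (adjusted p 0.0681, edgeR).

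**Figure D3:**
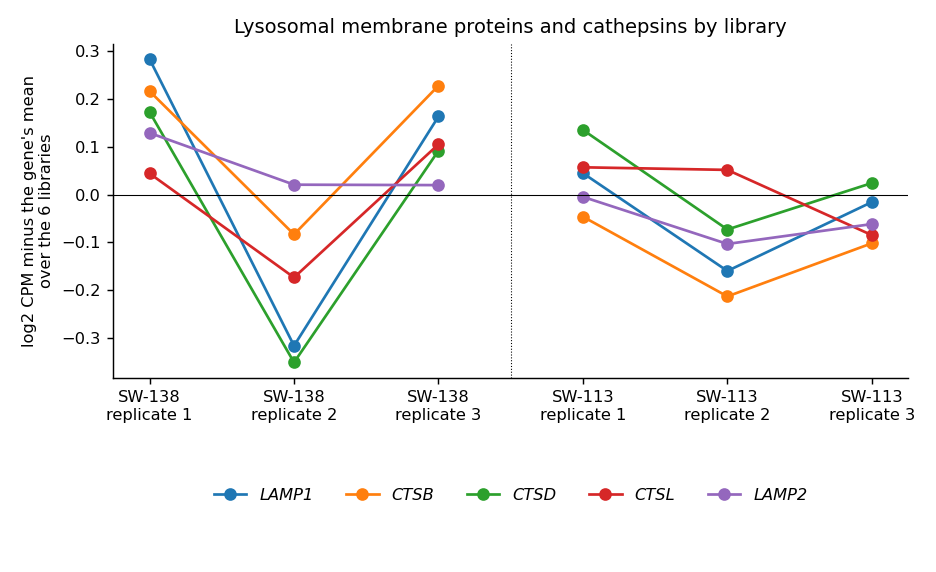
Log2 CPM of the 5 lysosomal members in each library, less the mean of the gene over the 6 libraries. LAMP1, CTSD and CTSB are lowest in replicate 2 of each compound, and their spread among SW-138 libraries is wide.

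The promoter of LAMP1 is shown because it holds more E-boxes than that of any other member. It is the 250 bases before the start in RefSeq, build GRCh38.p14, at chr13:113296989-113297238 (plus strand), written 5′ to 3′ with CACGTG in capitals.
LAMP1: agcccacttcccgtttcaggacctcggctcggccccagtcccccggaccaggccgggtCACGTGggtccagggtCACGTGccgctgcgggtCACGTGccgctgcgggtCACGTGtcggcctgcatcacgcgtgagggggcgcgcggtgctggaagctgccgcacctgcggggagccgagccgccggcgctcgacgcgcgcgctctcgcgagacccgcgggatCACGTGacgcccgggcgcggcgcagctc
LAMP1 holds 5 E-boxes, the first starting 192 bases before the gene, and is the only 1 of 27305 genes in the table with 5 or more. CTSD holds 1, starting 47 bases before its RefSeq start, and 65 of the 250 bases of CTSD lie in an exon of the GENCODE model. CACGTG, which reads the same on both strands, occurred in 4 of the 40 members with a promoter entry (10.0%), namely ATG14, ATG3, LAMP1 and CTSD, and in 2110 of the 27305 promoters (7.73%). It occurred in 22 of 105 other genes of the pathway (21.0%), with 8 of 24 other lysosome genes (33.3%). The longer form TCACGTGA, which contains the E-box, was in LAMP1 alone among the members (2.5%) and in 1.04% of all promoters. The antioxidant response element TGACNNNGC, searched on both strands, was in 8 of the 40 (20%), among them LAMP1, CTSD, CTSL, MAP1LC3B, VCP and UBB, and in 13.2% of all promoters. These are matches of letters and not measured binding.

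The 6 genes for ubiquitin, VCP and its cofactors all had a negative log2 fold change, from -0.18 to -0.02, and none passed. With total-count scaling NPLOC4 stood at 0.046 and PLAA at 0.015, so the shared direction depends on the scaling, and NPLOC4 was at 0.031 without SW-138 replicate 2. VCP had 297.0, 299.7 and 310.2 CPM under SW-138, against 314.1, 318.2 and 319.4 CPM under SW-113. The groups did not overlap, and the difference of -0.07 (95% interval -0.16 to 0.02) had an edgeR adjusted p of 0.427. UBB, 1 of the genes that encode ubiquitin chains, had 370.8, 415.3 and 391.0 CPM under SW-138, against 412.0, 434.2 and 443.4 CPM under SW-113. These overlapped through SW-138 replicate 2, and the difference of -0.13 (95% interval -0.25 to -0.01) had an edgeR adjusted p of 0.212. The UBB difference was -0.002 with length and GC trends removed. UBB shares its sequence with the copy UBBP4, listed at 33.04 CPM under SW-138 and 29.8 CPM under SW-113, so its value is uncertain.

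UFD1, which with NPLOC4 brings ubiquitylated proteins to VCP, had 44.9, 46.7 and 50.1 CPM under SW-138, against 51.5, 54.8 and 53.8 CPM under SW-113. It did not overlap, and its difference of -0.18 had an adjusted p of 0.0962 (edgeR). NPLOC4 differed by -0.02. PLAA had 79.7, 79.1 and 78.9 CPM under SW-138 against 80.3, 82.3 and 83.2 CPM under SW-113, with no overlap and a difference of -0.05 (adjusted p 0.571, edgeR). UBXN6, another VCP cofactor, differed by -0.12. Summed over the 6 genes, counts were 984, 1021 and 1034 CPM under SW-138, against 1058, 1091 and 1100 CPM under SW-113.

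STUB1 had the largest difference of the 47 genes and fell under SW-138. It encodes a ubiquitin ligase that works with the chaperones HSP70 and HSP90 and marks misfolded proteins for disposal. STUB1 had 70.7, 77.3 and 82.4 CPM under SW-138, against 90.9, 105.2 and 96.8 CPM under SW-113, and every SW-138 library was below every SW-113 library. The means were 76.8 ± 5.83 CPM under SW-138 and 97.6 ± 7.18 CPM under SW-113 (SD, n = 3 each), which is 1.27-fold lower. On the log2 scale this was -0.35 ± 0.07 (SE; 95% interval -0.50 to -0.19), with an edgeR adjusted p of 0.0181. Leaving out single libraries moved its adjusted p between 0.0104 and 0.0781 (edgeR), and it missed the threshold without SW-138 replicate 1, SW-113 replicate 2 or SW-113 replicate 3.

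STUB1 lies at chr16:680224-682870 on the plus strand of GRCh38 and shares 1200 bases with JMJD8 on the opposite strand. JMJD8 had 20.7 CPM under SW-138 and 20.3 CPM under SW-113, a difference of 0.03 (edgeR adjusted p 0.843). The other partners in this role were G3BP1, a stress granule protein that binds KDAC6, USP5, which takes apart free ubiquitin chains, and BAG6, a chaperone of mislocalised proteins. Their differences were 0.02, -0.06 and -0.02, and their libraries overlapped. The 8 roles in which edgeR called no member hold 38 genes. Of these, 10 (26.3%) had an unadjusted p under 0.05 in edgeR, against 22.3% of all genes. DESeq2 called 2, SQSTM1 and CTSB, where it called 8.09% of all genes. By limma-voom 0 were called, against 6.68% of all genes. These roles were picked for their lack of edgeR calls, so the 0 from limma-voom is not a separate result.

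Transcript length moved with the differences. Among protein-coding genes in the decile with the shortest transcripts, 207 to 1639 bases long, the median log2 fold change was -0.15 and 220 of 1331 genes (16.5%) fell. In the decile with the longest transcripts the median was 0.04, and 76 genes rose and 16 fell. Of the 6 members under 2000 bases, 5 had a negative difference and 2, GABARAP and STUB1, fell, with a median of -0.17. All 2175 tested protein-coding genes under 2000 bases had a median of -0.13, and 305 (14.02%) fell. With trends over length and GC content removed, STUB1 and GABARAP still passed, at -0.24 (adjusted p 0.0413) and -0.24 (adjusted p 0.0462) by edgeR.

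**Figure D4:**
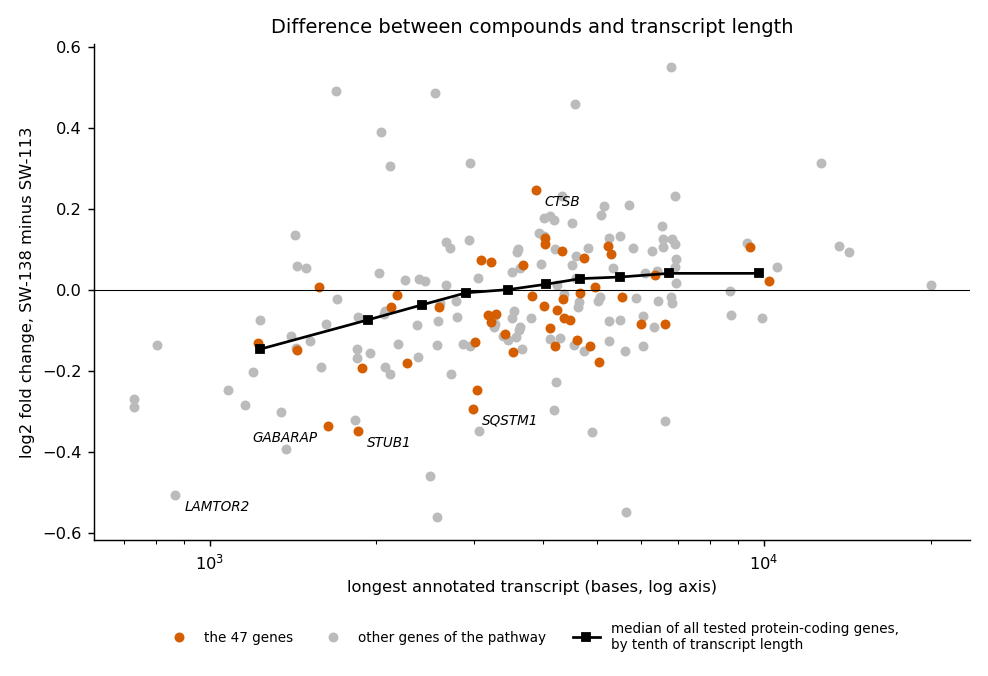
Log2 fold change, SW-138 minus SW-113, against the longest annotated transcript in bases on a log axis, for the 47 genes in orange and the other tested genes of the pathway in grey. The black line joins the medians of all tested protein-coding genes by decile of length, from -0.15 for the shortest to 0.04 for the longest, and GABARAP and STUB1 lie at the short end below it.

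Other genes of the same pathway were read from 6 lists holding 143 genes, of which 141 were tested. Of these, 15 changed (10.6%, against 6.82% of all genes), 4 of them higher and 11 lower under SW-138, and the median was -0.03. With scaling by total count alone the split was 9 higher and 7 lower. The count was 7 without SW-138 replicate 1, 7 without SW-113 replicate 2 and 6 without SW-113 replicate 3 (edgeR). These are 4.96%, 4.96% and 4.26% of the pathway genes, against 2.94%, 2.64% and 1.74% of all genes in the same fits.

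The genes of MTOR and AMPK control set autophagy by nutrient supply. Of 23 tested, they held 6 of the 15, all lower (26.1%, against 4.06% of all genes). These were MLST8, a subunit of MTOR complexes, RRAGA, a GTPase that brings MTOR to the lysosome, and LAMTOR1, LAMTOR2, LAMTOR4 and LAMTOR5 of the Ragulator, the anchor of those GTPases. LAMTOR2 had 9.37, 9.50 and 9.75 CPM under SW-138, against 12.3, 14.3 and 13.9 CPM under SW-113, which is -0.51 on the log2 scale (adjusted p 0.00714, edgeR). LAMTOR5 had 38.5, 41.5 and 41.98 CPM under SW-138, against 49.4, 52.1 and 50.8 CPM under SW-113, at -0.32 (adjusted p 0.00897, edgeR). LAMTOR1 and LAMTOR4 had -0.30 and -0.27, and LAMTOR3 just missed at -0.23 (adjusted p 0.0502, edgeR). MLST8 and RRAGA had -0.21 and -0.19. The Ragulator was grouped after its values were seen. With length and GC trends removed, LAMTOR2 and LAMTOR5 still passed, LAMTOR3 passed (adjusted p 0.0231), and LAMTOR1 (adjusted p 0.0562), LAMTOR4 (adjusted p 0.462), MLST8 (adjusted p 0.168) and RRAGA (adjusted p 0.266) did not (edgeR). When single libraries were left out, LAMTOR2 passed in all 6 fits. LAMTOR5 missed the threshold without SW-113 replicate 3, and LAMTOR1 without SW-138 replicate 1 or SW-113 replicate 2. LAMTOR4 missed it in every such fit except that without SW-138 replicate 3, RRAGA in every one except that without SW-138 replicate 2, and MLST8 in all 6. MLST8, RRAGA and LAMTOR4 also missed it with total-count scaling (adjusted p 0.107, 0.142 and 0.0765, edgeR).

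In the list of other autophagy machinery, 3 of 25 changed, a larger share than the 6.82% of all genes. EPG5, a tether for fusion of autophagosomes with late endosomes and lysosomes, rose to 125.9, 130.5 and 118.7 CPM under SW-138, against 97.6, 103.6 and 100.6 CPM under SW-113, at 0.31 (adjusted p 0.00889, edgeR). TP53INP1, which binds ATG8 proteins, fell by 0.55 on the log2 scale to 23.1, 24.7 and 20.5 CPM under SW-138, against 31.4, 36.4 and 31.9 CPM under SW-113 (adjusted p 0.00568, edgeR). ATG4A, a relative of ATG4B that prefers GABARAP proteins, fell by 0.46 to 5.32, 5.35 and 4.89 CPM under SW-138, against 6.70, 6.80 and 7.91 CPM under SW-113 (adjusted p 0.0290, edgeR). All 3 genes had no overlap between the compounds. EPG5 missed the threshold without SW-113 replicate 3 (adjusted p 0.0562), and ATG4A missed it in every fit without a single library except SW-138 replicate 2 (adjusted p up to 0.127) and with total-count scaling (adjusted p 0.0511, edgeR).

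Of 13 other receptors, 1 changed (7.69%, against 6.82% of all genes). It was BNIP3, a mitochondrial receptor, at -0.35 (adjusted p 0.00390, edgeR). BNIP3 had 96.3, 96.8 and 94.3 CPM under SW-138 against 125.5, 117.5 and 122.7 CPM under SW-113. Of 36 other lysosome genes, 2 changed (5.56%, against 6.82% of all genes). GUSB, a lysosomal glucuronidase, rose by 0.49 (adjusted p 0.0179) and CTSF, a cathepsin, by 0.39 (adjusted p 0.0214, edgeR). GUSB was lowest in replicate 2 of both compounds, at 37.3, 30.2 and 35.6 CPM under SW-138 against 26.8, 21.4 and 25.7 CPM under SW-113. GUSB missed the threshold without SW-138 replicate 1, SW-138 replicate 3, SW-113 replicate 2 or SW-113 replicate 3 (adjusted p up to 0.0698), and CTSF in those fits and without SW-113 replicate 1 (adjusted p up to 0.104, edgeR). Of 26 other VCP cofactor and ubiquitin genes, 1 changed (3.85%, against 6.82% of all genes). It was RPS27A, which encodes ubiquitin fused to a ribosomal protein, at -0.28 (adjusted p 0.0116, edgeR). RPS27A did not pass with length and GC trends removed (adjusted p 0.1) or without SW-138 replicate 3 (adjusted p 0.0512, edgeR).

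Among 18 other KDAC6 partners and aggresome genes, 2 changed (11.1%, against 6.82% of all genes). DYNLL1, a dynein light chain, fell by 0.39 (adjusted p 0.00349) and PPP1R12A, a subunit of myosin phosphatase, rose by 0.21 (adjusted p 0.0298, edgeR). PPP1R12A missed the threshold in every fit without a single library except SW-138 replicate 2 (adjusted p up to 0.111, edgeR). DYNLL1 had 76.2, 82.3 and 82.8 CPM under SW-138, against 103.2, 104.4 and 109.3 CPM under SW-113, with no overlap. HDAC6, the gene of KDAC6 itself, had 14.5, 15.4 and 14.3 CPM under SW-138, against 12.4, 13.5 and 14.5 CPM under SW-113. The HDAC6 groups overlapped, and the difference of 0.13 (95% interval -0.05 to 0.31) had an edgeR adjusted p of 0.374. The level of HDAC6 RNA does not report the activity of the protein, which is what the inhibitors act on.

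**Figure D5:**
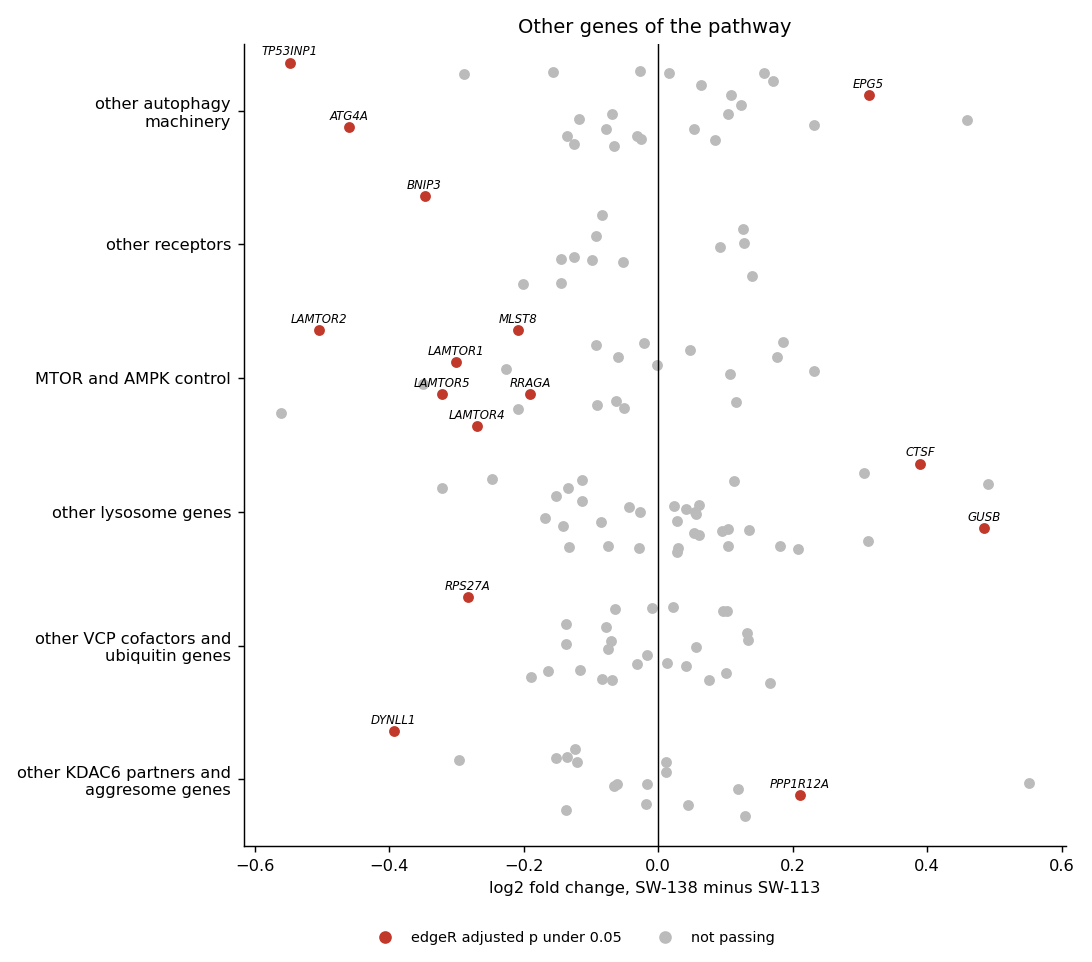
Log2 fold change, SW-138 minus SW-113, of the 141 tested genes in the 6 lists of other genes of the pathway, with those past the edgeR test in red and named. The MTOR and AMPK list holds 6 of the 15, all left of 0 (26.1% of the list, against 4.06% of all genes lower). Of these, LAMTOR1, LAMTOR4, MLST8 and RRAGA did not pass with length and GC trends removed. CTSF and GUSB lie right of 0 in the lysosome list.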

How the data were processed

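RNA from 6 libraries, 3 per compound, was sequenced after depletion of ribosomal RNA, per the labels' protocols. Expected counts per gene are what the authors deposited, and 10.56% to 11.56% of them in a library have a fractional part, with no tolerance applied. GRCh38, DESeq2 1.42.0, RSEM 1.3.3, Bowtie2 2.5.4 and Trimmomatic 0.39 are named in the submitters' processing notes, with no role or order. Annotation, filters and strand setting are not given in the sources used here.

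Expected counts were rounded, and genes kept by filterByExpr, which left 16905, including all 47 members. The compounds were compared with edgeR 4.0.16 (quasi-likelihood test, TMM factors, SW-138 minus SW-113, no block), with p-values adjusted by Benjamini-Hochberg over the 16905 genes and a threshold of 0.05. Standard errors came from limma-voom (limma 3.58.1), and 95% intervals have the edgeR log2 fold change as their centre. R was 4.3.3. Genes were placed with GENCODE 29, and lengths are those of the longest annotated transcript. The script was tested on simulated data.

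Whether the 3 libraries of a compound came from separate cultures is not stated by the labels. The p-values then measure spread among these samples only, which may be technical. With totals from 32771670 counts upward, the median standard error was 0.09 (log2) over all genes and 0.06 over the members.

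The members, the 6 lists and the tests were chosen with earlier results of these data known. Some genes are not reported here. Values in every library are given for members past the threshold, for those whose libraries do not overlap at an absolute log2 fold change of at least 0.2, and for SQSTM1, MAP1LC3B, GABARAP, VCP and UBB. Pathway genes named by rule are HDAC6, those past the threshold and the 1 with the smallest p in each list. Library values of other genes, such as CTSB and LAMP1, and the difference of LAMTOR3 were added after values were seen. Alternatives covered scaling, filters, tests, the replicate block, length and GC content, noncoding RNA and left-out libraries.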

Additional observations from a re-analysis of the deposited data

How the results depend on the processing

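The count of members past the threshold was 2 (edgeR) and stayed at 2 or 3 with DESeq2 size factors, upper-quartile factors, total counts alone, a mean of at least 5 CPM, limma-voom, length and GC trends removed, and mitochondrial and stable noncoding RNA genes left out. These counts are 4.26% to 6.38% of the members, against 6.64% to 11.5% of all genes. The count was 4 (8.51%, against 6.54% of all genes) with genes kept at 1 count in 1 library, 4 (8.51%, against 8.09%) with the DESeq2 Wald test and 5 (10.6%, against 11.9%) at an adjusted p of 0.1. Leaving out 1 library at a time gave 0 to 5 members (up to 10.6%, against 1.74% to 9.39% of all genes). Leaving out both replicate 2 libraries, chosen after seeing the data, gave 4 (8.51%, against 8.38%). The cause was not tested.

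With the mean of each compound subtracted per gene, libraries with the same replicate number correlated at 0.0492, 0.206 and 0.0512. Of the 6 libraries, 2 correlated best with the library of the same number under the other compound. A replicate block moved the share of all genes called from 6.82% to 13.98%. These values do not settle whether the replicate numbers pair the samples. With the replicate block the count was 6 members (12.8%, against 13.98% of all genes), with CTSB, SQSTM1, GABARAPL2 and UFD1 beside GABARAP and STUB1, and with the replicate block and length and GC trends removed it was 7 (14.9%, against 13.59%). For the other genes of the pathway, 15 passed, against 25 with the replicate block (17.7%, against 13.98%) and 23 with the replicate block and length and GC trends removed (16.3%, against 13.59%). Leaving out 1 library at a time gave 6 to 18 (4.26% to 12.8%, against 1.74% to 9.39% of all genes). The other alternatives gave 11 to 22 (7.80% to 15.6%, against 6.54% to 11.9% of all genes).

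No called gene changed sign in any of 19 alternatives. The sign changed for 15 uncalled members, the largest at 0.108, and 37 members passed in no setting. Precision is limited by 3 libraries per compound and, for MAP1LC3A, by depth.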
